A study of Drosophila melanogaster with 6 samples.

Results

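The beat, side and adhesion molecule genes of Drosophila melanogaster were examined for the genomic intervals listed as binding sites of the homeodomain transcription factor Drgx in T4/T5 neurons, the motion-sensitive cells of the fly optic lobe. A list of 49 genes was taken by name, out of 13922 protein-coding genes annotated on the chromosome arms 2L, 2R, 3L, 3R, 4 and X. It holds 14 beat genes, 8 side genes, 7 cadherin genes, 9 genes of other immunoglobulin proteins, 7 genes of leucine-rich-repeat proteins including 4 of the Toll family, 2 teneurin genes, and Fas1 and Nrt. Intervals were counted for a gene if they shared 1 bp or more with its body or with the 1 kb beyond either end.

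Binding was measured by Targeted DamID, in which a bacterial DNA adenine methylase (Dam) fused to a protein leaves methyl marks near the sites that the protein visits. The study set 3 samples that express Dam fused to Drgx (UAS-Dam-DRGX) against 3 samples that express Dam alone (UAS-Dam), which marks accessible chromatin. In both groups R23G12-Gal4 drove the transgene, both carried UAS-CD8-GFP and the temperature-sensitive repressor tubGal80ts, and brains were dissected from larvae raised at 18 °C and kept at 29 °C for 24 h at the third instar. The DNA came from whole brains, so the cells profiled are those in which this driver was active. The list has no expression values, and the cell type was not checked against markers.

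The data were one list of 2396 intervals for the whole series, each with the authors' score and a false discovery rate, of which 2394 lie on the arms above. The list names no sample, and it was taken to be the comparison of Dam-Drgx with Dam alone, which neither the labels nor the file states. No error between replicates can therefore be attached to an interval, the read depth is unknown, and everything below is a description of counts, positions and scores without a test. The scale of the score is not stated, and it serves here to rank intervals within the list. Coordinates are those of the list, in the BDGP6 build named in the labels, and gene positions are those of Release 6 in RefSeq.

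Beat proteins are immunoglobulin-superfamily proteins first known from motor axons that leave their bundles, and Side proteins are transmembrane immunoglobulin proteins that bind them. Specific Beat and Side proteins pair across cells, and they are among the candidate labels by which neurons of the optic lobe recognise partners and layers. Cadherins and teneurins bind mostly across cells to like or matching proteins, and leucine-rich-repeat proteins such as Capricious act in the choice of target layers in the visual system.

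Intervals were found at 31 of the 49 genes, or 63.3% (Wilson 95% interval 49.3% to 75.3%, counting error only), against 10.9% of all protein-coding genes. The genes listed are long, with a median of 41.4 kb against 2.16 kb for protein-coding genes, and long genes meet more intervals. Weighted by the length classes of the 49 genes, the share over protein-coding genes was 48.5%. At least 2 intervals lay at 24 of the genes, against 2.77% of protein-coding genes, and at least 4 lay at 6 of them, against 0.481%. Together 80 intervals were met, each by 1 gene of the list, which is 2.71 intervals per 100 kb of gene body and flanks (exact Poisson 95% interval 2.15 to 3.37, counting error only).

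With gene length held, the shares came closer to those of other genes. None of the 8 genes under 10 kb had an interval, where 6.11% of protein-coding genes did. From 10 to 30 kb 4 of 9 genes had one against 27.9%, and from 30 to 60 kb 13 of 16 against 58.2%. From 60 to 100 kb 9 of 11 genes had one against 73.5%, and over 100 kb 5 of 5 against 67.5%. Per 100 kb, genes of 30 to 60 kb on the list met 4.22 intervals against 2.35 for protein-coding genes of that class. The values for genes of 60 to 100 kb were 2.50 against 2.12 intervals per 100 kb, the closest of the 4 classes in which listed genes had intervals. For at least 2 intervals, the counts were 0 of 8, 2 of 9, 10 of 16, 7 of 11 and 5 of 5 genes from the shortest class to the longest. The shares of protein-coding genes with at least 2 intervals were 0.343%, 7.84%, 28.2%, 49.7% and 56.6% in the same order.

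**Figure D1:**
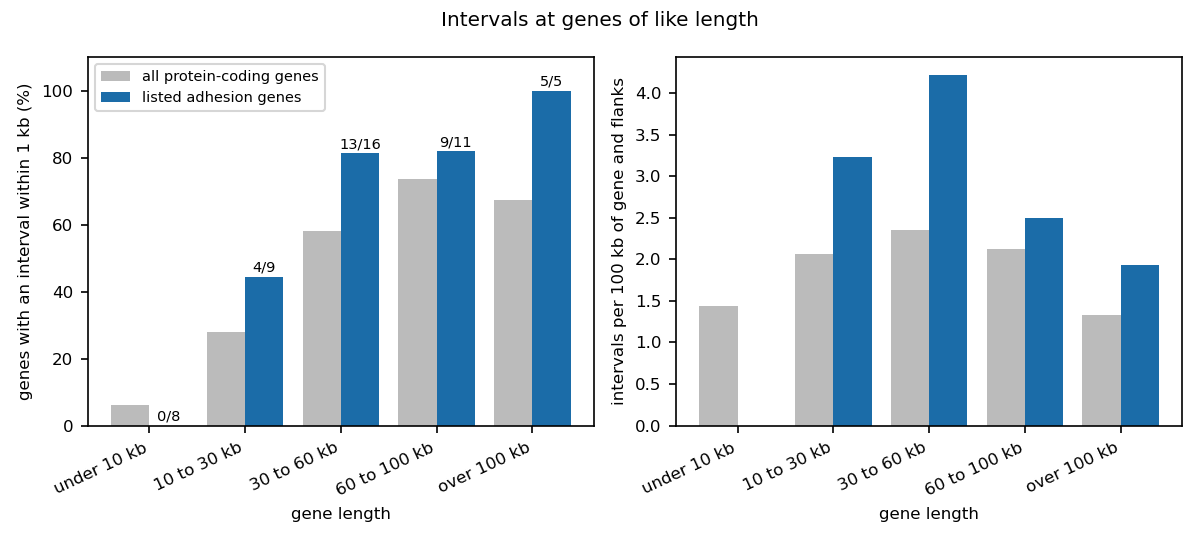
Left, the percentage of genes with an interval within 1 kb in 5 classes of gene length, for all protein-coding genes (grey) and the listed adhesion genes (blue, with counts above the bars). Right, intervals per 100 kb of gene body and flanks in the same classes. The blue bars stand above the grey ones in every class from 10 kb upwards, and no listed gene under 10 kb had an interval.

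The count of genes moved little with the rule that joins gene and interval. The shares set beside it here are over all protein-coding genes, and gene length was not held in them. The count was 31 with gene bodies alone, against 8.32% of protein-coding genes. It was 31 too where at least 50% of the interval had to lie inside, against 8.91%. With flanks of 5 kb it was 36 against 19.9%. It was 30 with intervals that met 1 protein-coding gene alone, against 6.03%. Stricter lists lowered it to 26 with a deposited false discovery rate of 0.001 or less, against 6.7%, and to 24 with scores at or above the list median, against 5.92%. The 7 genes lost with the higher scores were beat-Ic, beat-IIIa, beat-IIIc, beat-IV, side, side-II and side-VIII, all of them beat or side genes. Beat genes with an interval fell from 9 to 5 and side genes from 6 to 3, and the other listed genes lost none. Protein-coding genes with an interval fell from 1512 to 824 in the same step, so the loss among beat and side genes was of the usual size.

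Among the subfamilies, the side genes had an interval in 6 of 8 cases, where the share of protein-coding genes weighted by their lengths was 55.5%. The beat genes had one in 9 of 14 cases against 49.1%, and the cadherins in 4 of 7 against 47.8%. The other immunoglobulin genes had one in 6 of 9 cases against 62.6%, and the leucine-rich-repeat genes in 2 of 7 against 22.3%. With length held from 30 to 60 kb, 7 of 9 beat genes and both side genes of that length had an interval. Per 100 kb, the 9 beat genes of that class met 3.75 intervals and the 2 side genes met 7.03, against 2.35 for protein-coding genes. The 5 other listed genes of that class met 3.83, so the raised density was not particular to beat genes. From 10 to 30 kb, the 3 beat genes met 1.46 per 100 kb and the 1 side gene none, against 2.07. From 60 to 100 kb, the 1 beat gene met 1.33 and the 4 side genes met 2.91, against 2.12. In that class of 60 to 100 kb, all 4 side genes and the 1 beat gene had an interval. So had 3 of 4 other immunoglobulin genes and 1 of 2 cadherin genes, against 73.5% of protein-coding genes. These groups are too small to order: the Wilson 95% intervals of the subfamily shares ran from 40.9% to 92.9% for the side genes and from 8.22% to 64.1% for the leucine-rich-repeat genes, and they overlapped.

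Across the 49 genes the number of intervals went with gene length (Spearman's rho 0.67, across genes, which are not independent replicates). At like length single genes still stood far apart. The adjacent genes ed and fred are 84.4 kb and 88.8 kb long and met 6 intervals and 1 interval. The cadherin genes CadN2 and ds, 88.3 kb and 75.0 kb long, met 2 and none, and the longest gene, kirre with 394 kb, met 3.

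**Figure D2:**
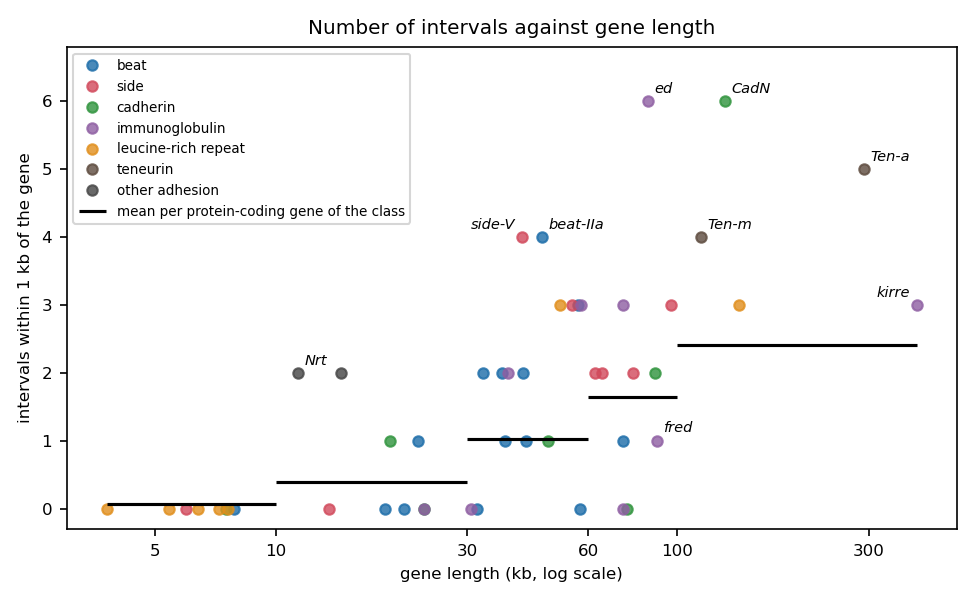
Number of intervals within 1 kb of each of the 49 genes (points, coloured by subfamily) against gene length in kb on a log scale, with the mean per protein-coding gene of each length class as black lines. CadN and ed have the most intervals with 6 each, and fred, about as long as ed, has 1.

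The beat genes with most intervals were beat-IIa and beat-VI. At beat-IIa (CG14334, 3R), a member of the pair of genes that encode ligands of Side-IV, 4 intervals were found, each within the gene. The interval at 17348730 to 17351146 scored 4.02, and those at 17327610 to 17329731, 17343319 to 17344328 and 17356763 to 17360935 scored 2.47, 2.34 and 1.97. A single interval thus stood above the list median of 2.83. Its neighbour beat-IIb (CG4135), 55.0 kb away, had 2 intervals inside its body, with scores of 3.43 at 17256599 to 17257954 and of 2.10 at 17239415 to 17242102.

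The gene beat-VI (CG14064, 3R) encodes a binding partner of Side-II and had 3 intervals. They scored 4.09 at 28458171 to 28458940, 2.39 at 28440690 to 28443031 and 1.93 at 28434575 to 28438090. At beat-VII (CG42242, 3R) the interval at 26676614 to 26677784 scored 4.12, the highest score at a beat gene, and a second at 26652800 to 26655942 scored 2.00 and also met the gene Tb. The pattern of a single high interval beside lower ones was thus shared by beat-IIa, beat-IIb, beat-VI and beat-VII. It was not particular to beat genes, as CadN2 (3.31 and 2.20) and sns (3.46, 2.24 and 1.75) had it too.

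The remaining beat genes with an interval scored lower, apart from beat-Vc. At beat-Vc (CG14390, 3R) the interval at 12765310 to 12766718 scored 3.85 and also met 2 lncRNA genes. At beat-IV (CG10152, 3R) the score was 2.44 at 23570318 to 23572820. On 2L, beat-Ic (CG4838) had scores of 2.43 at 16006070 to 16007989 and 1.64 at 16018302 to 16021820, beat-IIIc (CG15138) of 2.28 at 17221514 to 17224060, and beat-IIIa (CG12621) of 2.23 at 17152743 to 17156629. The interval of beat-IIIa also met CG34106, and the higher one of beat-Ic met 3 other protein-coding genes. No interval lay within 1 kb of beat-Ia, beat-Ib, beat-IIIb, beat-Va and beat-Vb. The founding member beat-Ia, which encodes the binding partner of Side on motor axons, had its nearest interval 5.75 kb away.

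Of the side genes, side-V (CG34371, 2R) met most intervals, 4 over 41.0 kb. Their scores were 3.02 at 23182732 to 23184506, 2.87 at 23189329 to 23190149, 2.53 at 23204035 to 23205402 and 2.20 at 23171287 to 23172572. The first of these also met CG13539, and the third lay outside the gene body, 62 bp from its end. The highest score at a side gene was at side-VI (CG34114, 3R), which encodes the partner of the Beat-V proteins. Its 2 intervals scored 4.64 at 11013238 to 11014066, rank 96 of the list, and 3.95 at 10999259 to 10999977.

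At side-III (CG34113, 3R) the scores were 4.31 at 5896637 to 5898828, 3.74 at 5924342 to 5925130 and 2.46 at 5885023 to 5885609. The 3 intervals of side-VIII (CG12484, 2R) all scored below the list median, with 2.42 at 20458371 to 20461743, 2.35 at 20447612 to 20450218 and 1.79 at 20463375 to 20468379. The same held for the 2 intervals of side-II (CG42313, 2L), 2.28 at 14949394 to 14953159 and 2.26 at 14965895 to 14968407. It held too for side (CG31062, 3R), the founding member that guides motor axons to muscle, with 2.54 at 27384637 to 27385447 and 2.31 at 27436483 to 27438194. The latter reached across the gene end and also met CG44290. Neither side-IV nor side-VII, the shortest of the family with 13.6 kb and 5.97 kb, had an interval.

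Known partners were set side by side, in a list of pairs chosen from general knowledge that may leave some out. Of 7 pairs of Beat and Side proteins that bind one another, both genes had an interval in 2, beat-Vc with side-VI and beat-VI with side-II. In the other 5 pairs 1 of the genes had an interval. Side had intervals without beat-Ia, beat-IIa and beat-IIb had them without side-IV, and side-VI had them without beat-Va and beat-Vb. The count rests on the distance rule and the score: both genes had an interval in 5 of the 7 pairs with 5 kb flanks, in 1 with scores at or above the list median and in 1 with a deposited rate of 0.001 or less. The pairs share genes and are not independent, and no share of other gene pairs of like length was computed.

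**Figure D3:**
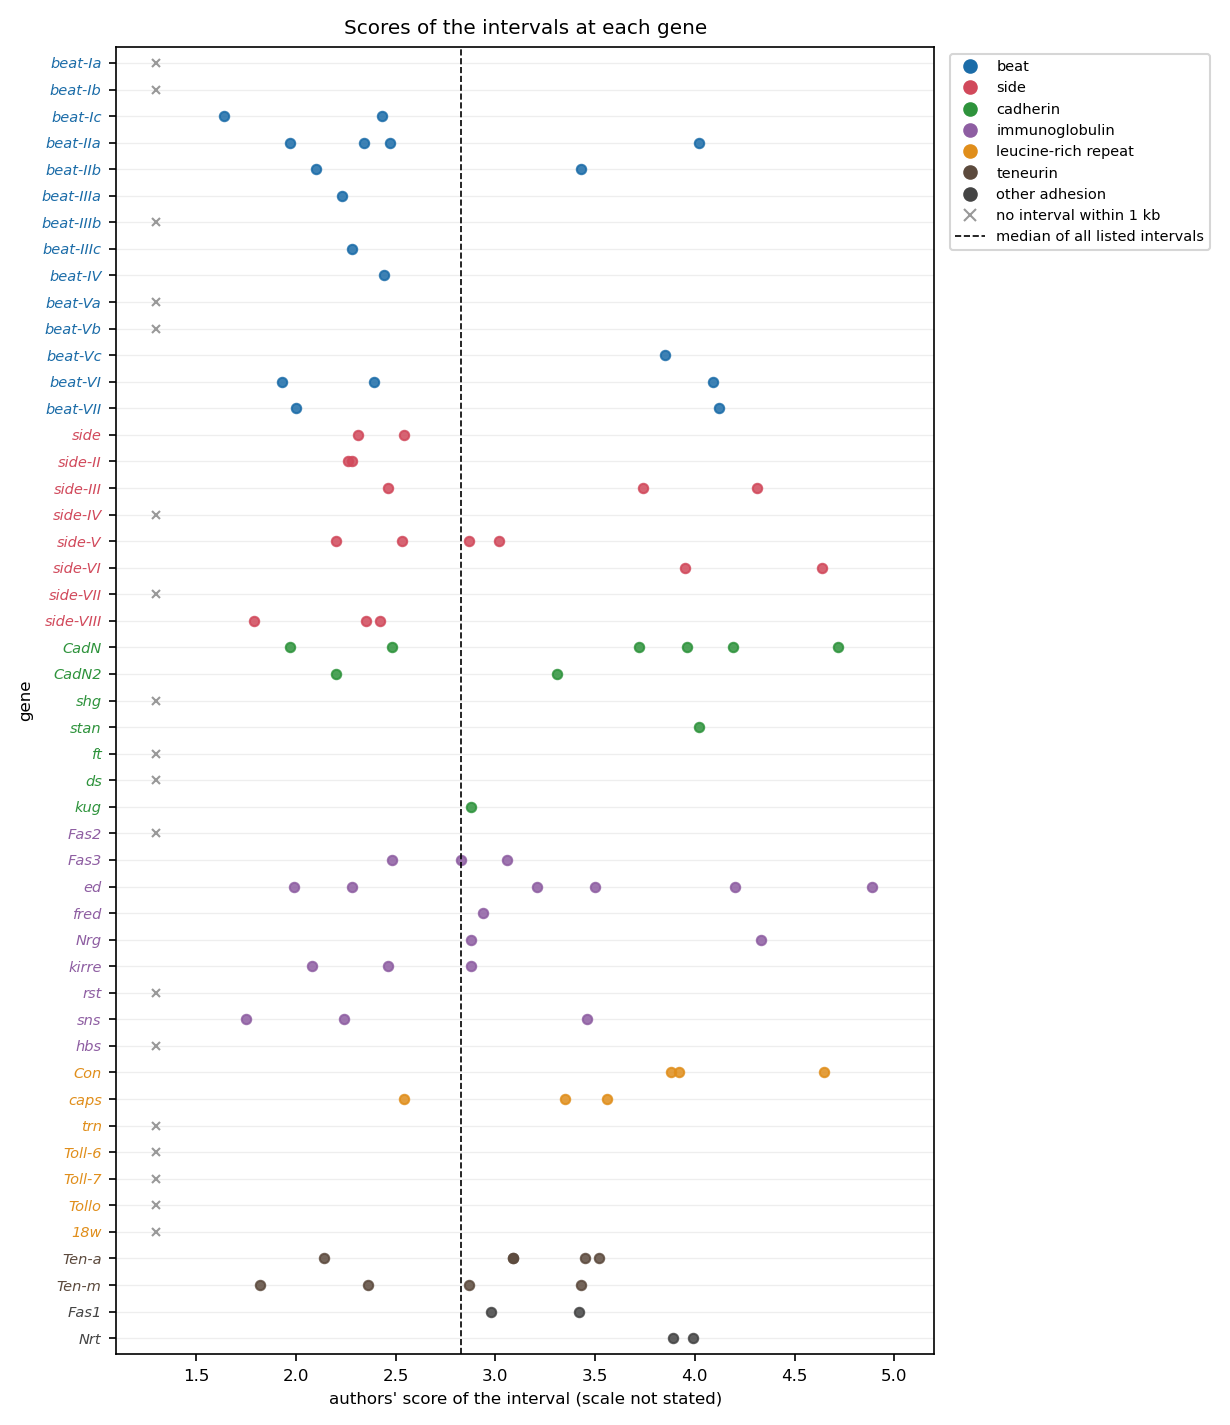
The authors' score of each interval (horizontal axis, scale not stated) at each of the 49 genes, coloured by subfamily. Crosses mark genes with no interval within 1 kb, and the dashed line is the median of all listed intervals, 2.83. Most points of the beat and side genes lie left of that line, and most points of the other genes lie on it or to its right.

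Among the cadherin genes, CadN (CG7100, 2L) carried 6 of the 10 intervals. With intervals within 1 kb of one another joined, CadN had 4 and ed still 6. CadN encodes N-cadherin, which photoreceptor axons and their target neurons need for the choice of layer. Its highest score was 4.72 at 17747025 to 17748379, rank 83 of the list. The intervals at 17742536 to 17743780 and 17744077 to 17746446, with scores of 4.19 and 3.72, lay next to it and carry the same false discovery rate of 1.30e-15. The other 3 scored 3.96 at 17765252 to 17766869, 2.48 at 17754842 to 17756405 and 1.97 at 17731208 to 17733801. All 6 midpoints lay between 65.1% and 90.6% of the way along the gene from its lower coordinate, and the first 84.2 kb held none.

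The tandem copy CadN2 (CG42829), 8.63 kb from CadN, had 2 intervals, with scores of 3.31 at 17833275 to 17835146 and 2.20 at 17859215 to 17860863. At stan (CG11895, 2R), which encodes the seven-pass cadherin Flamingo of axon targeting and planar polarity, the interval at 10680494 to 10683045 scored 4.02. At kug (CG7749, 3L), which encodes the Fat-like cadherin Fat2, the interval at 20006336 to 20007292 scored 2.88. The genes of E-cadherin (shg) and of the polarity cadherins Fat and Dachsous (ft and ds) had none within 1 kb, and at ds, 75.0 kb long, the nearest was 38.0 kb away.

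In the immunoglobulin group, ed (CG12676, 2L), which encodes the adhesion protein Echinoid, had 6 intervals. The interval at 4045732 to 4046588 scored 4.89, rank 45 of the list and the highest at any of the 49 genes. The others scored 4.20 at 4095268 to 4095998, 3.50 at 4107754 to 4108009, 3.21 at 4037708 to 4039719, 2.28 at 4029238 to 4031827 and 1.99 at 4090340 to 4094234. They fell into 2 sets, 3 with midpoints up to 14.8 kb from the lower-coordinate end and 3 beyond 60 kb. Its paralogue fred (CG31774) had a single interval at 3973505 to 3977092, with a score of 2.94.

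The L1-type gene Nrg (CG1634, X), which encodes Neuroglian, had scores of 4.33 at 8522863 to 8525139 and 2.88 at 8549013 to 8550099, and the first also met PIP82. At Fas3 (CG5803, 2L), which encodes the homophilic protein Fasciclin 3, the scores were 3.06 at 18367529 to 18369638, 2.83 at 18353630 to 18354525 and 2.48 at 18318555 to 18320697. No interval lay within 1 kb of Fas2, the fly counterpart of NCAM, but one with a score above the list median lay 1.91 kb from it.

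The 4 genes kirre, rst, sns and hbs encode immunoglobulin proteins of cell recognition that pair with one another. The gene sns (CG33141, 2R) had scores of 3.46 at 8804101 to 8806498, 2.24 at 8842791 to 8845593 and 1.75 at 8853103 to 8854995. At kirre (CG3653, X) the scores were 2.88 at 2792828 to 2794173, 2.46 at 3134775 to 3136003 and 2.08 at 2895922 to 2897818. The first of these also met w, the eye-colour gene white, and the second, 243 bp outside the body of kirre, also met N, which encodes the receptor Notch, so 2 of its 3 intervals cannot be assigned to kirre by position alone. The paralogue rst, which lies within the annotated span of kirre, had no interval, and neither had hbs.

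Of the leucine-rich-repeat genes, Con and caps had 3 intervals each. At Con (CG7503, 3L), which encodes the homophilic protein Connectin, the scores were 4.65 at 4944884 to 4945678, rank 95 of the list, 3.92 at 5004331 to 5005395 and 3.88 at 5015410 to 5017369. All 3 were above the list median. At caps (CG11282, 3L), which encodes Capricious, the scores were 3.56 at 13254602 to 13255082, 3.35 at 13225733 to 13228353 and 2.54 at 13269305 to 13274730. The second of these lay 339 bp outside the gene body. The close relative trn, 3.81 kb long and 111 kb from caps, had none within 1 kb, although 7 intervals lay between the 2 genes, with scores up to 4.39.

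None of the 4 Toll-family genes on the list had an interval, and these are 5.42 to 7.62 kb long. The nearest interval to Toll-6 lay 10.6 kb away and ranked at position 40 of the list. That of Toll-7 was 3.29 kb away, of 18w 17.8 kb and of Tollo 31.0 kb. A share of 6.11% of protein-coding genes under 10 kb had an interval, so a count of 0 among 4 short genes says little.

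Both teneurin genes, which match synaptic partners in the olfactory system of the fly, had several intervals. At Ten-a (CG42338, X) 5 intervals were listed, with scores of 3.52 at 12263044 to 12265317, 3.45 at 12066380 to 12068881, 3.09 at 12099555 to 12101207, 3.09 at 12242915 to 12244977 and 2.14 at 12076960 to 12078901. Over a body of 292 kb this was 1.70 intervals per 100 kb. At Ten-m (CG5723, 3L) the 4 scores were 3.43 at 22356462 to 22358360, 2.87 at 22379986 to 22381878, 2.36 at 22365732 to 22367064 and 1.82 at 22309387 to 22313198. Of these 9 intervals, 6 also met an annotated lncRNA gene.

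The short genes Fas1 and Nrt had 2 intervals each, or 12.1 and 14.9 per 100 kb. Among the 31 genes with an interval the density fell with length (Spearman's rho -0.62, across genes). Genes without an interval were left out of this value, so a short gene that enters it stands high by construction. Over all 49 genes the densities were 0, 3.23, 4.22, 2.50 and 1.94 per 100 kb from the shortest length class to the longest. At Fas1 (CG6588, 3R), which encodes the fasciclin-domain protein Fasciclin 1, the scores were 3.42 at 16628165 to 16629057 and 2.98 at 16629149 to 16631672, and these intervals lay less than 1 kb apart. Joined, they gave 6.05 intervals per 100 kb, below side-V with 9.31 and beat-IIa with 8.31. At Nrt (CG9704, 3L), which encodes the cholinesterase-like adhesion protein Neurotactin, the scores were 3.99 at 16764327 to 16767116 and 3.89 at 16768805 to 16769353. Both carry the false discovery rate of 4.57e-27, the lowest at any of the 49 genes.

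**Figure D4:**
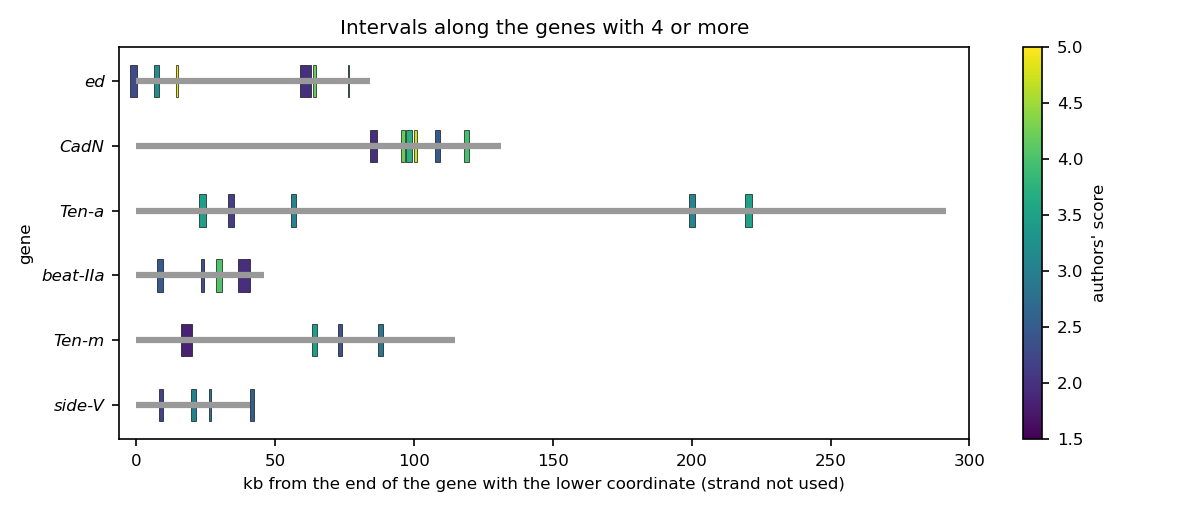
Positions of the intervals (boxes, to scale and coloured by the authors' score) along the 6 genes with 4 or more of them, in kb from the gene end with the lower coordinate. In CadN all 6 lie beyond 84.2 kb, while in Ten-a and ed they lie on both sides of the middle of the gene.

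The intervals lay mostly inside the gene bodies. Of 80 intervals, 73 were wholly inside the gene body, 4 reached across a gene end and 3 lay in the flanks. The midpoint was within 500 bp of a gene end in 3 cases, or 3.75%, against 5.72% of the pairs of gene and interval at protein-coding genes of 10 kb or more. Midpoints lay a median of 16808 bp from the nearer gene end, and with length held this was close to other protein-coding genes. The medians were 3190 bp against 3715 bp at genes of 10 to 30 kb, 9089 bp against 11190 bp at 30 to 60 kb, 20570 bp against 20782 bp at 60 to 100 kb, and 35182 bp against 34948 bp over 100 kb. Besides the listed gene, 15 of the 80 intervals met another annotated gene, and 8 met another protein-coding gene. No share over other protein-coding genes is given for these counts or for those inside, across and beyond gene bodies. Exons, introns, untranslated parts and gene strand were not used here.

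The scores at the 49 genes spanned 1.64 to 4.89, within the range of 1.24 to 6.47 of the whole list. Their median was 2.88 (95% interval of the median 2.47 to 3.31) against 2.83. That range treats the 80 intervals as independent, although many share a gene, so it does not measure the spread between genes. At or above the list median stood 44 of 80 (55.0%), against 50.3% of all intervals. Among the highest 10% of scores, 4.21 or more, stood 6 of the 80 (7.50%), against 10.3% of all. Within the 100 highest-scoring intervals 4 lay at these genes, at ed, CadN, Con and side-VI.

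The scores are given by subfamily as a description. The beat intervals had a median score of 2.39 and the side intervals of 2.50, against 3.51 at cadherins, 2.88 at the other immunoglobulin genes, 3.72 at the leucine-rich-repeat genes and 3.09 at the teneurins. These medians rest on few genes: the leucine-rich-repeat value on Con and caps, the teneurin value on 2 genes, and the cadherin value on CadN for 6 of 10 intervals. At or above the list median stood 11 of 33 intervals at beat and side genes and 33 of 47 at the other genes. In the whole list the median score was 3.39 up to the median width of 1617 bp and 2.56 above it, and the widths were 2122 bp (median) at beat and side genes and 1897 bp at the others. Among intervals wider than 1617 bp, 3 of 20 at beat and side genes reached a score of 2.83, against 19 of 30 at the other genes and 33.5% of all listed intervals. Among the narrower ones the counts were 8 of 13 and 14 of 17, against 66.9% of all. The gap was wider among wide intervals, and it was not tested, because intervals of 1 gene are not independent and no replicate values were at hand.

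**Figure D5:**
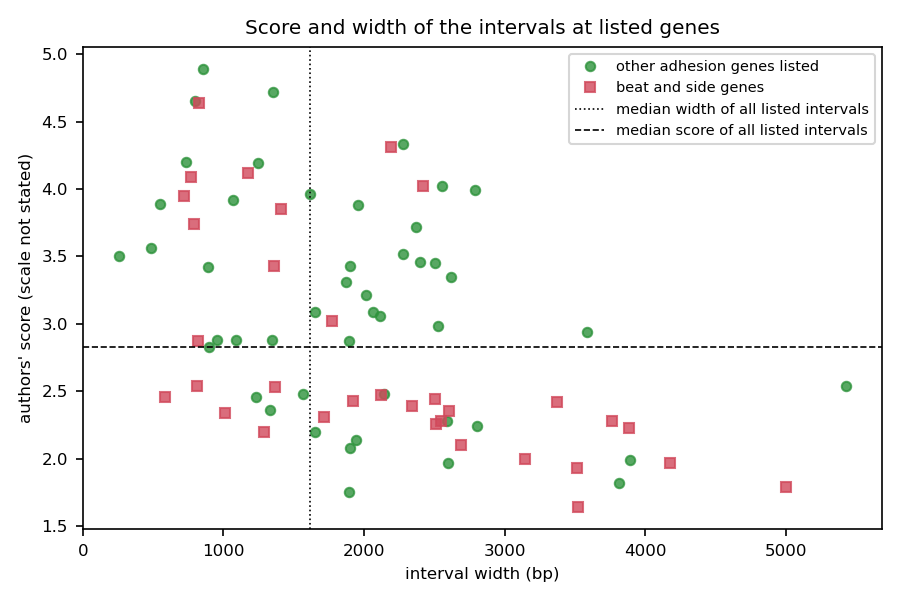
The authors' score against interval width in bp for the 80 intervals, with beat and side genes as red squares and the other genes as green circles. The lines mark the median width (dotted, 1617 bp) and the median score (dashed, 2.83) of all listed intervals. To the right of the dotted line, 17 of 20 red squares lie below the dashed line.

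The 18 genes without an interval were mostly short, with a median length of 16.2 kb against 56.6 kb for the 31 with one. Just outside the limit of 1 kb lay Fas2 (1.91 kb to the nearest interval), beat-Va (2.73 kb), Toll-7 (3.29 kb), shg (3.33 kb) and side-IV (3.36 kb). Their nearest intervals scored 4.15, 1.85, 2.07, 4.27 and 2.47 in this order. Between 5 and 20 kb lay beat-Ia, hbs (5.80 kb), Toll-6 and 18w. The remaining 9 genes, with the nearest interval beyond 20 kb, were beat-Ib (29.9 kb), beat-IIIb (31.3 kb), beat-Vb (54.0 kb), side-VII (28.7 kb), ft (28.1 kb), ds, rst (52.6 kb), trn (20.5 kb) and Tollo.

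A second list of 45 genes of other adhesion and recognition proteins, such as Dscam, neuroligin, integrin, Kekkon and further cadherin genes was counted by the same rule. It was chosen from general knowledge. Of these, 24 (53.3%, Wilson 95% interval 39.1% to 67.1%) had an interval, where the length-weighted share of protein-coding genes was 38.2%. The gene sdk on X, which encodes the visual-system adhesion protein Sidekick, had 4 intervals with scores of 1.80 to 2.81. With 3 intervals each, Tl reached a score of 4.54, kek5 of 4.31, kek6 of 2.95, Dscam4 of 2.71, Lar of 2.65 and Ptp10D of 2.60. The density over this list was 2.95 intervals per 100 kb, against 2.71 at the 49 genes, and the difference was not tested. Length was not held between these densities, and the median length was 22.0 kb in this list against 41.4 kb for the 49 genes.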

How the data were processed

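Targeted DamID libraries were made from 3 samples with Dam-Drgx and 3 with Dam alone. The authors deposited 1 interval list, without a header and without sample names. Its score is the authors' score, as deposited, with 2 decimals and no stated scale. A false discovery rate stands beside it as text. The build BDGP6 is named in the submitters' processing notes, and the peak caller, aligner, filters and handling of replicates are not given in the sources used here. Depth per sample is unknown.

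Starts were converted to 1-based positions. Genes, lengths and names came from the RefSeq table of Release 6 (17684 genes on 6 arms, 13922 protein-coding), in which all 49 listed genes and all 45 other adhesion genes were found. Overlap required 1 bp with the gene body and 1 kb flanks. Length classes had bounds of 10, 30, 60 and 100 kb. Intervals of shares are Wilson 95% intervals, that of the density is exact Poisson, and that of the median score comes from binomial order statistics. The last 2 treat the listed intervals as independent. Counting was done in pandas 2.3.3 with numpy 2.4.6 under Python 3.11.15, and intervals of shares came from scipy 1.17.1. Overlap counting was tested on simulated data and against bedtools 2.31.1. No test between groups was possible. Every listed gene is named, with the positions of its intervals, and of the other list sdk and the genes with 3 intervals. The rule for that list took the 5 with most intervals, ties by highest score, and Lar and Ptp10D, which tied with 4 of them, were added after their values were seen. The members, lists and comparisons were chosen with earlier results of these data known. Sequences were not used here.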

Additional observations from a re-analysis of the deposited data

How the results depend on the processing

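No paired analysis was possible because the list holds no values per sample. Of 7 alternatives, 6 were listed at the outset and 1, intervals that meet 1 protein-coding gene only, was chosen after seeing the data. The number of genes with an interval ranged from 24 to 36 of 49. With 5 kb flanks, beat-Va, side-IV, shg, Fas2 and Toll-7 were added. Joining intervals within 1 kb left 31 genes and 77 intervals. Intervals that meet 1 protein-coding gene only left out beat-IIIa. A deposited rate of 0.001 or less left out beat-Ic, beat-IIIa, beat-IV, side-VI and kug, and the density was 1.86 per 100 kb. With scores at or above the list median, the counts were 44 intervals, 5 beat genes, 3 side genes and 13 other adhesion genes, with a density of 1.49 per 100 kb and a median score of 3.54, because that setting uses fewer intervals and drops the low scores. Cadherin, immunoglobulin and leucine-rich-repeat counts stayed within 1.5 times their value in the 7 alternatives.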
